A study of Mus musculus with 5 samples.

Results

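The sodium-coupled transporters of the Slc5 family that carry sugars, lactate and other monocarboxylates, inositol and vitamins were examined in mouse kidney. They are Slc5a1, Slc5a2, Slc5a3, Slc5a6, Slc5a8, Slc5a9, Slc5a10, Slc5a11 and Slc5a12, and make up 9 of the 54532 gene IDs in the deposited count table. Their rows were taken by gene symbol, and the set was chosen with earlier results of these data known. RNA of whole kidney was sequenced from 8-week-old male wild-type C57BL/6J mice, an inbred strain, in 2 libraries from DMXAA-treated mice and 3 from vehicle-treated mice. DMXAA, a small molecule that activates mouse STING, was given by intraperitoneal injection on 3 days running, 10 mg/kg each day, the control mice received vehicle on the same schedule, and tissue was taken on day 3. The comparison asks which transcripts differed between DMXAA and vehicle kidneys. Nothing in the labels states that the numbered samples were different animals, and p-values therefore reflect only how far these samples spread.

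Slc5 proteins use the sodium gradient that the basolateral sodium-potassium pump maintains to draw solutes into the cell against their own gradient. In the kidney they sit mostly on the brush border of the proximal tubule, where they recover filtered glucose, lactate and other small solutes from the forming urine. Glucose taken up by them leaves the cell on the blood side through facilitative transporters of the Slc2 family.

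Among the 9 transporters, Slc5a2 and Slc5a12 stood higher in both DMXAA libraries than in any vehicle library, as did 13.7% of all genes tested. Slc5a2 encodes SGLT2, the high-capacity glucose transporter of the early proximal tubule, and Slc5a12 encodes SMCT2, a low-affinity lactate transporter of the same region. Their group means in DMXAA kidneys were 1.55 and 1.63 times those in vehicle kidneys. The libraries of the other 7 members overlapped between the groups, including Slc5a1 (SGLT1) and Slc5a8 (SMCT1), the high-affinity counterparts of these transporters. No member passed the main test after adjustment over all genes tested.

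The members are related in sequence, and the count of each rests on reads that can be assigned to it. In the GENCODE M21 annotation of mm10 their coding sequences were 59.3 to 68.5% identical over aligned bases across the 36 pairs, and the longest run identical between any pair of members was 24 bases. The stretches around the longest shared runs of the sugar pair and of the lactate pair are shown because the results turn on telling these genes apart, with the shared run in capitals.
Slc5a2: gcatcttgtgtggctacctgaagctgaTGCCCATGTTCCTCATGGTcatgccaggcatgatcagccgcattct
Slc5a1: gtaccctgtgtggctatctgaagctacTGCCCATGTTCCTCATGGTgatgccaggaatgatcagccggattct
Slc5a12: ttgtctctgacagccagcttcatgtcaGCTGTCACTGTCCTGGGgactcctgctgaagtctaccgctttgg
Slc5a8: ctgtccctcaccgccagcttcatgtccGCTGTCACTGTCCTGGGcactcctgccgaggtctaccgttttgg
The capitals cover 19 coding bases in the sugar pair and 17 in the lactate pair, and the coding sequences as wholes were 67.8% and 64% identical. The sequences are read 5′ to 3′ on the coding strand, from coding base 935 of Slc5a2, 941 of Slc5a1, 163 of Slc5a12 and 175 of Slc5a8. The strand setting of the counting is not given in the sources used here, so reads from genes on the opposite strand cannot be told apart where exons overlap. This touches Slc5a2, which shares 20.6% of its exonic bases with the antisense gene BC017158, and likewise Slc5a10 (16.8%) and Slc5a6 (9.92%). Slc5a3 shares 1.46% of its exonic bases with Mrps6 and Gm49711, which lie on its own strand. No exonic base is shared by Slc5a1, Slc5a8, Slc5a9, Slc5a11 or Slc5a12. BC017158 itself was at 22.6 and 22.0 CPM in DMXAA libraries and at 21.7, 20.5 and 24.4 CPM in vehicle libraries, so its level overlapped between the groups.

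The libraries held 18176586 and 20264228 counts in DMXAA and 17667490 to 18552912 in vehicle, of which the 9 members took 23342 to 33933 per library. Levels are CPM (counts scaled to a common library size by TMM) and, where genes are compared with each other, RPKM, which divides the CPM by the kilobases of annotated exon. Of 8 interferon-stimulated genes used to check the treatment, all 8 had estimates above 0, with summed levels of 598 and 766 CPM in DMXAA and 180.4, 416 and 204 CPM in vehicle libraries. Both DMXAA libraries lay above all vehicle libraries for 6 of the 8, against 13.7% of all genes. None was called by edgeR after adjustment, and DESeq2 called 3, where it called 0.331% of all genes higher. On these 8 genes, vehicle library 2 lay nearest to DMXAA. The mean centred log2 level of the 8 genes was 0.52 and 0.78 in DMXAA and -0.77, 0.15 and -0.68 in vehicle libraries. Vehicle library 1 stood apart in markers of other tissue, and the part of this in the results was not tested beyond leaving that library out. The 8 adipose markers summed to 47.6 and 55.8 CPM in DMXAA and to 732, 27.7 and 50.8 CPM in vehicle libraries 1, 2 and 3. The 7 urothelial markers summed to 12.5 and 8.31 CPM in DMXAA and to 184, 2.44 and 23.4 CPM in vehicle libraries. The adipokine Adipoq had 0 counts in both DMXAA libraries. In 3 further lists the estimates of all genes tested also lay below 0. All 5 red cell genes had estimates below 0, each at an unadjusted p below 0.05 in edgeR and none called after adjustment, with sums of 52.3 and 29.9 CPM in DMXAA and 280, 170.1 and 73.3 CPM in vehicle libraries. All 7 immediate early genes, which respond within minutes to stimulation and to handling, had estimates below 0 (3 at an unadjusted p below 0.05, none called), with sums of 79.6 and 92.9 CPM in DMXAA and 105, 131 and 193 CPM in vehicle libraries. The 4 B cell genes tested of 6 also had estimates below 0 (2 at an unadjusted p below 0.05 in edgeR, none called). For 2 of the 4 both DMXAA libraries lay below all vehicle libraries, against 12.3% of all genes. The sums of the 6 genes overlapped, at 16.5 and 6.47 CPM in DMXAA and at 11.9, 11.2 and 21.7 CPM in vehicle libraries. The part of these lists in the Slc5a2 and Slc5a12 values was not tested. Proximal tubule markers were abundant in every library, with 19 genes outside the Slc5 family summing to 26062 and 27314 CPM in DMXAA and to 21583, 26678 and 20962 CPM in vehicle libraries.

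Per length, Slc5a2 was the most abundant member in each of the 5 libraries, at 112.8 ± 17.5 RPKM in DMXAA (SD, n = 2) and 72.6 ± 8.06 RPKM in vehicle (SD, n = 3). Slc5a12 came next in DMXAA, at 86.3 ± 10.2 RPKM, ahead of Slc5a8 at 60.3 ± 2.22 RPKM and Slc5a10 at 46.0 ± 3.25 RPKM, and the DMXAA libraries of these 4 genes did not overlap. In vehicle, Slc5a10 (56.0 ± 16.3 RPKM), Slc5a8 (55.0 ± 7.39 RPKM) and Slc5a12 (53.0 ± 3.54 RPKM) lay within each other's spread, and their order changed from library to library. A middle tier followed, with Slc5a3 at 28.8 ± 0.905 RPKM in DMXAA and 24.9 ± 4.95 RPKM in vehicle, Slc5a1 at 21.1 ± 0.307 RPKM in DMXAA and 20.9 ± 4.20 RPKM in vehicle, and Slc5a11 at 18.7 ± 2.85 RPKM in DMXAA and 15.7 ± 3.94 RPKM in vehicle. The vehicle libraries of neighbours within this tier overlapped. Slc5a9 (8.56 ± 0.403 RPKM in DMXAA, 7.06 ± 1.34 RPKM in vehicle) and Slc5a6 (6.44 ± 0.627 RPKM in DMXAA, 6.69 ± 1.29 RPKM in vehicle) were lowest, and overlapped each other in vehicle.

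**Figure D1:**
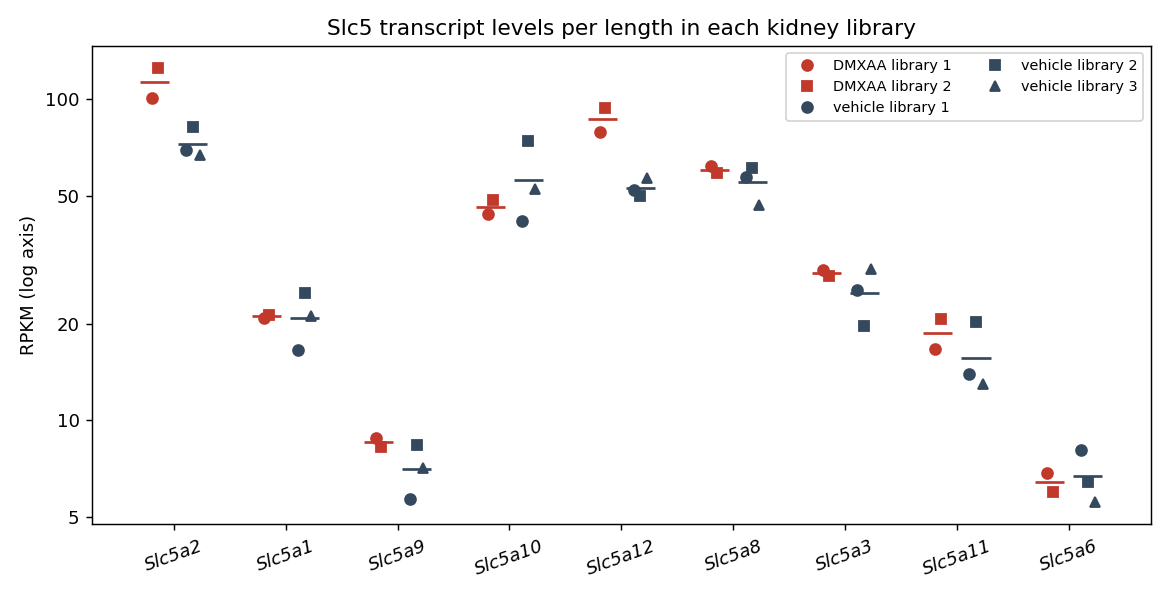
Level of each Slc5 member in RPKM (vertical log axis) in the 2 DMXAA libraries (red) and the 3 vehicle libraries (dark blue), with horizontal lines at the group means. The red points lie above all dark blue points for Slc5a2 and Slc5a12, and the groups overlap for the other 7 genes.

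Among the sugar transporters, Slc5a2 (ENSMUSG00000030781, chr7:128265657-128272430, plus strand) was at 291 and 363 CPM in the DMXAA libraries and at 200.35, 237 and 194 CPM in the vehicle libraries. Both DMXAA values exceeded the highest vehicle value, that of vehicle library 2, and DMXAA library 2 was the higher of its pair. The means were 327 ± 50.7 CPM in DMXAA (SD, n = 2) and 210.3 ± 23.4 CPM in vehicle (SD, n = 3), a log2 fold change of 0.64 (SE 0.14, 95% interval 0.30 to 0.97). In edgeR's quasi-likelihood test the unadjusted p was 0.00298, which placed the gene at 75 of 16226 by p, and the Benjamini-Hochberg adjusted p was 0.640. DESeq2, run as an alternative, gave an adjusted p of 0.0170. In whole kidney, more cells of a type and more RNA per cell cannot be told apart.

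Slc5a1, SGLT1, recovers the glucose left in the late proximal tubule (ENSMUSG00000011034, chr5:33104219-33162870). It was at 85.6 and 87.4 CPM in DMXAA libraries and at 67.8, 102.2 and 86.9 CPM in vehicle libraries, so both DMXAA values lay inside the vehicle range. Its log2 fold change was 0.01 (SE 0.17), with a 95% interval from -0.38 to 0.41. The sign turned to -0.13 without vehicle library 1 and to -0.03 after correction for length and GC content.

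Slc5a9, SGLT4, known from the human protein as a mannose and fructose transporter (ENSMUSG00000028544, chr4:111875375-111902918), was at 45.8 and 42.9 CPM in DMXAA and at 29.5, 43.4 and 36.9 CPM in vehicle libraries, a log2 fold change of 0.28 (SE 0.16). Vehicle library 2 lay between the DMXAA libraries and the other vehicle libraries were lower; the estimate was 0.14 without vehicle library 1 and 0.42 without vehicle library 2. Slc5a10, SGLT5, a mannose and fructose transporter found mainly in kidney (ENSMUSG00000042371, chr11:61672781-61720826), had the lowest edgeR estimate of the 9 members at -0.28 (SE 0.23). It was at 103 and 114 CPM in DMXAA and at 98.7, 175 and 124 CPM in vehicle libraries. The vehicle libraries spanned the DMXAA pair, and the estimate was -0.03 without vehicle library 2 and -0.46 without vehicle library 1.

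The monocarboxylate transporters were Slc5a12 and Slc5a8. Slc5a12 (ENSMUSG00000041644, chr2:110597298-110647779, plus strand) was at 321 and 380.0 CPM in the DMXAA libraries and at 211, 203 and 231 CPM in the vehicle libraries. The vehicle libraries were close together and both DMXAA libraries stood above them. The means were 351 ± 41.6 CPM in DMXAA (SD, n = 2) and 215 ± 14.4 CPM in vehicle (SD, n = 3), and the log2 fold change was 0.70 (SE 0.12, 95% interval 0.43 to 0.98). In edgeR's quasi-likelihood test the unadjusted p was 0.000582, at 15 of 16226 genes by p, and the Benjamini-Hochberg adjusted p was 0.535. That was the smallest adjusted value reached, and other genes, Rsad2 among them, shared it. DESeq2 gave an adjusted p of 0.000153, at 7 of 28030 genes by unadjusted p.

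Slc5a8, SMCT1, takes up lactate, pyruvate and short-chain fatty acids with higher affinity (ENSMUSG00000020062, chr10:88885992-88929515). It was at 329.7 and 313 CPM in DMXAA and at 305, 325 and 249 CPM in vehicle libraries. Vehicle library 2 lay between the DMXAA libraries, and the log2 fold change was 0.13 (SE 0.13, 95% interval -0.19 to 0.45). It was 0.03 without vehicle library 3 and 0.22 without vehicle library 2.

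The inositol and vitamin transporters overlapped between the groups. Slc5a3, SMIT1, the myo-inositol transporter that cells of the renal medulla use to gather osmolytes (ENSMUSG00000089774, chr16:92058322-92087473), was at 321 and 307 CPM in DMXAA and at 278, 214 and 322 CPM in vehicle libraries, a log2 fold change of 0.21 (SE 0.17). Vehicle library 2 was the low one, and the estimate was 0.07 without it and 0.35 without vehicle library 3. Slc5a11, SMIT2, an apical inositol transporter (ENSMUSG00000030769, chr7:123214780-123273253), was at 45.9 and 57.1 CPM in DMXAA and at 38.4, 55.7 and 35.7 CPM in vehicle libraries, a log2 fold change of 0.25 (SE 0.21). Its estimate ran from 0.09 without DMXAA library 2 through 0.13 without vehicle library 3 and 0.17 without vehicle library 1 to 0.41 without DMXAA library 1 and 0.48 without vehicle library 2. Slc5a6, SMVT, which carries biotin, pantothenate and lipoate (ENSMUSG00000006641, chr5:31036036-31048924), was at 27.5 and 23.9 CPM in DMXAA and at 32.3, 25.6 and 22.2 CPM in vehicle libraries. The highest value was that of vehicle library 1. Its log2 fold change was -0.06 (SE 0.17), and the sign turned to 0.10 without that library and to 0.04 without DMXAA library 2.

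**Figure D2:**
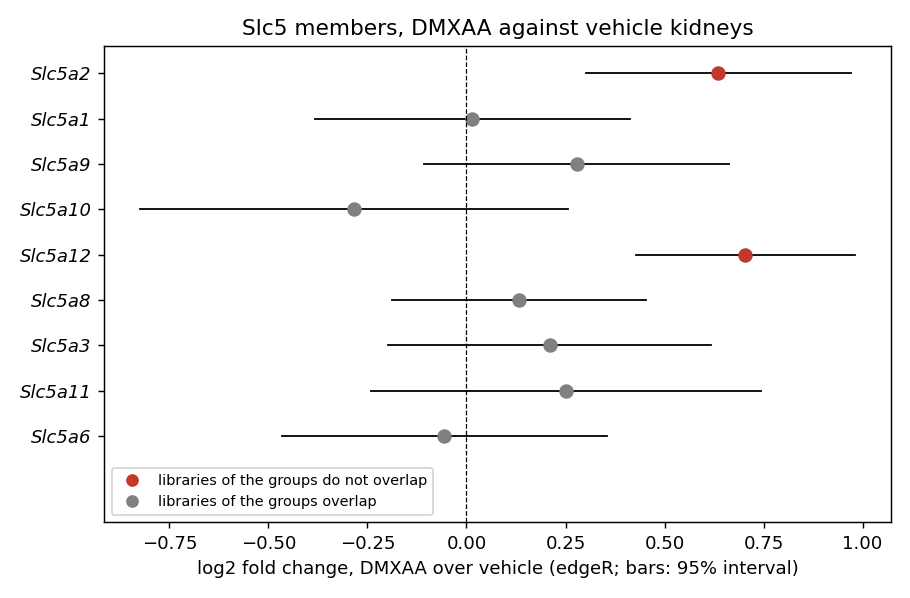
Log2 fold change of each Slc5 member, DMXAA over vehicle, from edgeR (horizontal axis), with 95% intervals as bars and genes down the page. The intervals of Slc5a2 (0.30 to 0.97) and Slc5a12 (0.43 to 0.98), in red, lie above 0, and those of the other 7 members cross 0.

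All 9 members passed the filter on low counts, and 7 had estimates above 0 (46.9% of all genes tested did), with a median log2 fold change of 0.21 against -0.01 over all 16226 genes. The edgeR test called 0 of 9 after adjustment, where it called 0% of all genes. At an unadjusted p below 0.05 it counted 2 members, both higher, where 3.89% of all genes were higher and 2.65% lower at that level and 1062 genes in all passed it. DESeq2 called the same 2 members, Slc5a2 and Slc5a12, where it called 0.331% of genes higher and 0.0576% lower. Both DMXAA libraries lay above all vehicle libraries for 2 of 9 members and for 13.7% of all genes, and below them for 0 of 9 members and for 12.3% of all genes. The DESeq2 call of Slc5a12 was lost only when DMXAA library 2 was left out, with an adjusted p of 1 and a log2 fold change of 0.58. The DESeq2 call of Slc5a2 was lost without vehicle library 3 (adjusted p = 0.269), DMXAA library 1 (0.0766) or DMXAA library 2 (1). Leaving out vehicle library 1, the one highest in adipose and urothelial markers, gave edgeR log2 fold changes of 0.60 for Slc5a2 and 0.69 for Slc5a12. Over all libraries they were 0.64 and 0.70. The part of other tissue in these values was not tested further.

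Ratios of transporter pairs within a library do not depend on how libraries are scaled. There were 3.40 and 4.15 Slc5a2 counts per Slc5a1 count in the DMXAA libraries, and 2.95, 2.32 and 2.23 in the vehicle libraries. Both DMXAA ratios exceeded every vehicle ratio, with vehicle library 1 the nearest. The mean log2 ratio was 1.91 ± 0.20 in DMXAA and 1.31 ± 0.22 in vehicle (SD, n = 2 and 3), a difference of 0.60 (exact two-sided permutation test, p = 0.2). For Slc5a12 to Slc5a8 the ratios were 0.974 and 1.21 in DMXAA and 0.692, 0.625 and 0.928 in vehicle libraries. DMXAA library 1 and vehicle library 3 were near each other, and the groups did not overlap. The mean log2 ratio was 0.12 ± 0.22 in DMXAA and -0.44 ± 0.30 in vehicle (SD, n = 2 and 3), a difference of 0.56 (exact two-sided permutation test, p = 0.2). With 10 ways to divide the libraries, 0.2 is the smallest p this design can give, and the adjusted p over these 2 ratios was also 0.2. Slc5a2 and Slc5a12 already stood apart in CPM, and the share of all gene pairs without overlap was not computed.

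**Figure D3:**
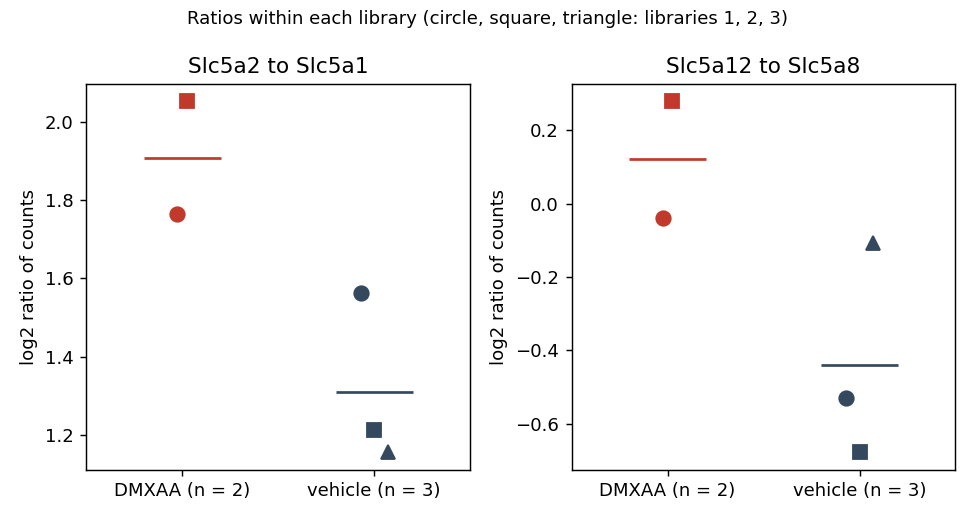
Log2 ratio of Slc5a2 to Slc5a1 counts (left panel) and of Slc5a12 to Slc5a8 counts (right panel) in each DMXAA library (red) and vehicle library (dark blue), with lines at the group means. In both panels the lowest DMXAA library lies above the highest vehicle library, at 1.76 against 1.56 and at -0.04 against -0.11.

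Proximal tubule transcripts outside the family mostly had estimates above 0. Of the 19 general proximal tubule genes, 16 had estimates above 0, with a median of 0.19; 3 of these had an unadjusted p below 0.05 in edgeR (Slc9a3, Cubn and Anpep) and none passed after adjustment. Slc9a3, the sodium-proton exchanger NHE3, was at 217 and 239 CPM in DMXAA and at 163, 146 and 173 CPM in vehicle libraries, and was the only gene of that list called by DESeq2 (adjusted p = 0.0231). DESeq2 did not call it when vehicle library 3 was left out (adjusted p = 0.0837), nor without DMXAA library 1 (0.778) or DMXAA library 2 (1). Of the 6 markers of the first segment (S1), 5 had estimates above 0, with a median of 0.32 and 4 at an unadjusted p below 0.05, among them Slc34a3, Slc7a8 and Slc6a19. Of the 8 markers of the last segment (S3), 4 had estimates above 0, with a median of 0.03 and 1, Acsm3, at an unadjusted p below 0.05. Both DMXAA libraries lay above all vehicle libraries for 9 of the 19 general genes, 4 of the 6 S1 markers and 2 of the 8 S3 markers. Among all genes tested, 13.7% did so. Of 8 thick limb and distal tubule genes, 5 had estimates above 0, with a median of 0.06. DESeq2 called 1 of the 8 lower, Pvalb (adjusted p = 0.0134), where it called 0.0576% of all genes lower. Pvalb was at 9.49 and 8.31 CPM in DMXAA and at 14.4, 21.0 and 17.4 CPM in vehicle libraries (edgeR adjusted p = 0.629). Of 10 collecting duct genes tested, 9 had estimates below 0, with a median of -0.34. The collecting duct genes summed to 769.5 and 820.6 CPM in DMXAA and to 1430, 829 and 891 CPM in vehicle libraries. Of 7 papillary and inner medullary markers, 5 had estimates below 0, with a median of -0.73. The part of these markers in the Slc5 values was not tested.

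Each member was also set against the mean log2 level of the 19 proximal tubule genes in its own library. On that scale Slc5a2 was at -1.40 and -1.11 in DMXAA and at -1.60, -1.72 and -1.73 in vehicle libraries, a mean difference of 0.43. Slc5a12 was at -1.26 and -1.04 in DMXAA and at -1.52, -1.94 and -1.47 in vehicle libraries, a mean difference of 0.49. For both genes the DMXAA libraries remained above all vehicle libraries. Slc5a10 was at -2.90 and -2.77 in DMXAA and at -2.62, -2.16 and -2.37 in vehicle libraries, a mean difference of -0.45, with both DMXAA libraries below all vehicle libraries. In CPM, the Slc5a10 libraries overlapped between the groups. The mean of the 19 genes, when centred, was itself 0.113 and 0.135 in DMXAA and -0.228, 0.130 and -0.150 in vehicle libraries. A gene of unchanged CPM therefore tends to sit lower in DMXAA on this scale. The share of all genes without overlap on this scale was not computed. The groups overlapped on this scale for the other 6 members, whose mean differences ran from -0.25 for Slc5a6 to 0.09 for Slc5a9.

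**Figure D4:**
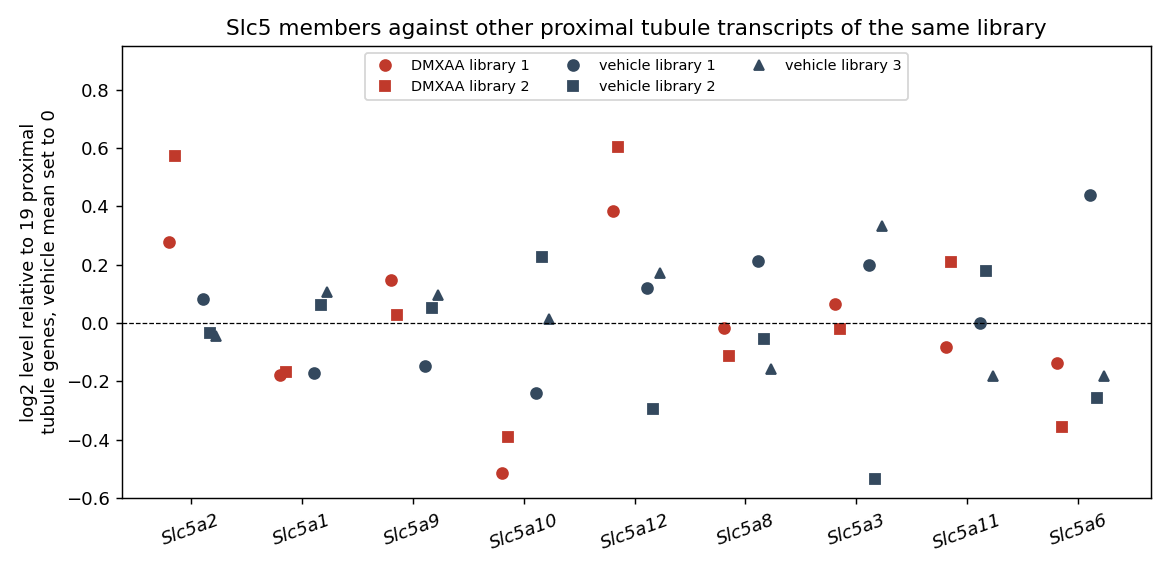
Log2 level of each Slc5 member relative to the mean of 19 other proximal tubule genes in the same library (vertical axis, with the vehicle mean of each gene set to 0), for DMXAA (red) and vehicle (dark blue) libraries. Slc5a2 and Slc5a12 lie higher in both DMXAA libraries than in any vehicle library, with mean differences of 0.43 and 0.49, and Slc5a10 lies lower, with a mean difference of -0.45. In CPM, the Slc5a10 libraries of the groups overlap.

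Genes that act with the sugar transporters were uneven. Of 16 genes of the glucose route (facilitative transporters, accessory proteins, the sodium-potassium pump, potassium channels and transcription factors), 12 had estimates above 0, with a median of 0.13, and edgeR called none after adjustment. Slc2a2, GLUT2, the basolateral exit for glucose brought in by SGLT2, was at 248 and 240.1 CPM in DMXAA and at 161, 186 and 175 CPM in vehicle libraries, and the groups did not overlap. Its log2 fold change was 0.49 (SE 0.10; edgeR unadjusted p = 0.00197, adjusted p = 0.629), and DESeq2 called it (adjusted p = 0.00909). DESeq2 no longer called it when vehicle library 1 was left out (adjusted p = 0.0553), nor without vehicle library 3 (0.253) or either DMXAA library (1 for each). Slc2a1, GLUT1, the exit used in later segments, was at 58.2 and 64.6 CPM in DMXAA and at 57.5, 54.1 and 71.9 CPM in vehicle libraries. Pdzk1ip1, which encodes MAP17, a small protein that SGLT2 needs for its activity, was at 471 and 498 CPM in DMXAA and at 407, 661 and 530.3 CPM in vehicle libraries. Both of these overlapped between the groups.

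Pdzk1, a scaffold of brush border transporters, was at 623 and 739 CPM in DMXAA and at 476, 517 and 411 CPM in vehicle libraries, with an unadjusted p of 0.00728 in edgeR and an adjusted p of 0.0568 in DESeq2. Hnf4a, a transcription factor of proximal tubule genes, was at 935 and 1055 CPM in DMXAA and at 662, 970 and 895 CPM in vehicle libraries, which overlapped. Slc2a4, GLUT4, had an estimate in the other direction, at 32.7 and 31.9 CPM in DMXAA and at 34.9, 49.4 and 48.8 CPM in vehicle libraries (log2 fold change -0.46, SE 0.16; adjusted p = 0.741 in edgeR).

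The genes around lactate lay about evenly on both sides of 0. Of 14 genes of the monocarboxylate route, 6 had estimates above 0, with a median of -0.01, and 1 had an unadjusted p below 0.05 in edgeR, Slc16a12, a creatine transporter, at 181 and 181 CPM in DMXAA and at 151, 145 and 137 CPM in vehicle libraries. Slc16a1, MCT1, a proton-coupled lactate carrier, was at 25.6 and 36.3 CPM in DMXAA and at 25.3, 37.1 and 32.8 CPM in vehicle libraries. The lactate dehydrogenase genes Ldha, Ldhb and Ldhd all overlapped between the groups, with log2 fold changes of 0.12, -0.02 and 0.13.

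Of 9 genes of inositol and osmolyte handling, 7 had estimates above 0, with a median of 0.19. Miox, the renal enzyme that opens the inositol ring, was the gene of this list with an unadjusted p below 0.05 in edgeR, at 1311 and 1673 CPM in DMXAA and at 1054, 1124 and 777 CPM in vehicle libraries (adjusted p = 0.736). Akr1b3, the aldose reductase that makes the osmolyte sorbitol, was at 46.8 and 55.9 CPM in DMXAA and at 579, 40.1 and 64.5 CPM in vehicle libraries, high only in vehicle library 1. The 7 papillary and inner medullary markers were also highest in that library, summing to 463 and 589.6 CPM in DMXAA and to 1268, 426 and 527 CPM in vehicle libraries, while Slc5a3 in vehicle library 1 lay between the other vehicle libraries. Of 11 vitamin transport and biotin recycling genes, 5 had estimates above 0, with a median of -0.02. The 1 gene of that list with an unadjusted p below 0.05 was Slc19a2, a thiamine transporter, at 16.98 and 15.9 CPM in DMXAA and at 23.9, 22.6 and 18.6 CPM in vehicle libraries (edgeR adjusted p = 0.741).

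**Figure D5:**
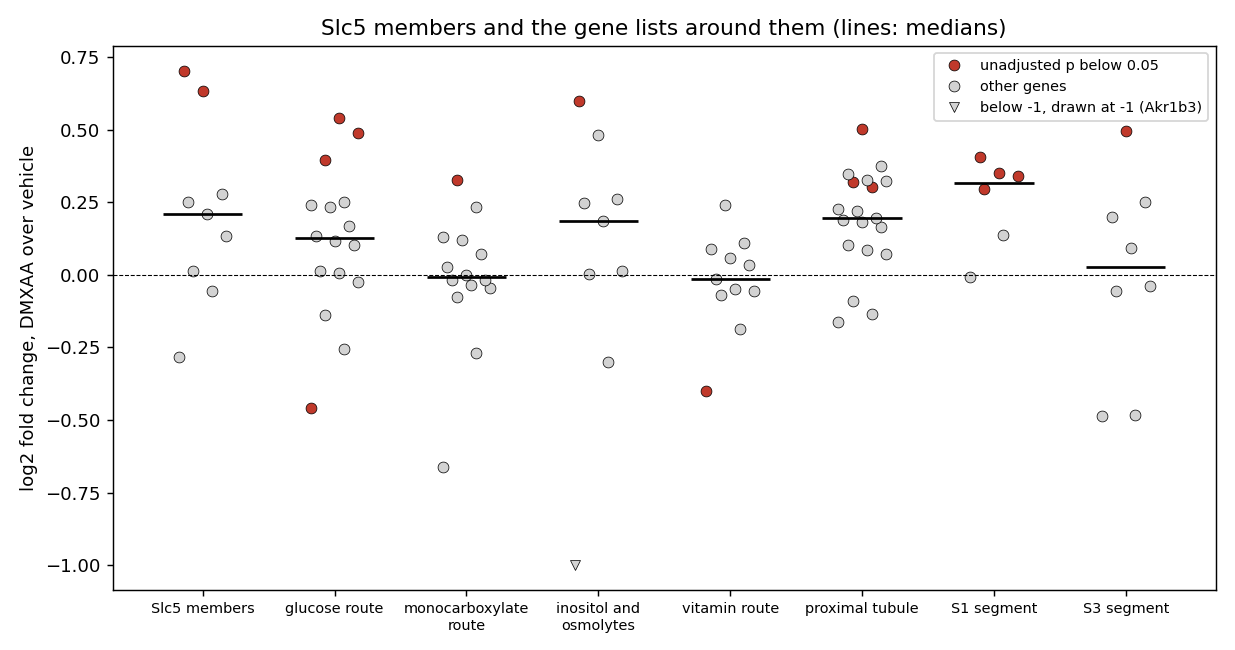
Log2 fold change, DMXAA over vehicle, of the 9 Slc5 members and of the genes of 7 related lists (vertical axis; each point is 1 gene, lines are medians, red marks an unadjusted p below 0.05 in edgeR). The medians run from -0.02 for the vitamin route to 0.32 for S1 segment markers, with the Slc5 members at 0.21, and Akr1b3 (-2.15) is drawn at the lower edge.

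The other 4 mouse Slc5 genes were near the limit of detection, where 3 counts correspond to 0.149 to 0.171 CPM and cover counting error only. Slc5a4a, an SGLT3 gene, had 21 and 11 counts in DMXAA and 16, 11 and 24 counts in vehicle libraries. Slc5a4b, the other SGLT3 gene, had 4 and 4 counts in DMXAA and 1, 1 and 2 counts in vehicle libraries. Slc5a5, the iodide transporter, had 1 and 1 counts in DMXAA and 12, 1 and 3 counts in vehicle libraries, and Slc5a7, the choline transporter of cholinergic neurons, had a single count, in vehicle library 1. Only Slc5a4a of these passed the filter on low counts.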

How the data were processed

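The authors deposited raw read counts per Ensembl gene ID in a single table with a column for each of the 5 libraries. The build mm10 and the tools DESeq2 1.16.1, Subread, featureCounts and HISAT2 are named per the submitters' processing notes; the sources used here do not say what each did, nor the annotation, the strand setting or how multi-mapping reads were handled. Per the labels' protocols, 2 library kits are named without saying which sample used which, so no library batch could be tested. Columns were assigned by name, with CO read as control and XA as DMXAA.

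Symbols (99.9% of IDs), positions and exon lengths were taken from GENCODE M21, whose assembly is that of mm10. A quasi-likelihood F test in edgeR 4.0.16 (R 4.3.3, TMM scaling, default expression filter, group as the only term, two-sided) was fitted on all 16226 genes kept, with calls made where the adjusted p (Benjamini-Hochberg) fell below 0.05. CPM and RPKM were computed from the deposited counts. The 95% intervals use the test's total degrees of freedom of 6.73. On simulated counts with the same design (15968 genes kept), edgeR recovered 57 of 100 genes given a 2-fold change and 99 of 100 given a 4-fold change, and called 10 genes that had none. Every simulated gene had the same dispersion, so these shares need not hold for the real counts, whose spread differs between genes. Ratios had 0.5 added to each count. Every pair of libraries differed by more than sampling noise (chi-square 7.35 to 38.5 per degree of freedom), and each counts as 1 sample.

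The members and gene lists were chosen with earlier results of these data known. The text names all Slc5 genes, set partners of them (among them Slc2a1, Slc2a2, Pdzk1ip1, Slc16a1 and Hnf4a) and up to 3 genes of each list by smallest unadjusted p, of which 1 gene is not reported here; Akr1b3, the lactate dehydrogenase genes and BC017158 were picked with their values in view. Alternatives were DESeq2 1.42.0, RLE size factors, no filter, a filter of 1 CPM in 2 libraries, scaling without the mitochondrial and the 20 most abundant genes, robust empirical Bayes, a loess correction for GC content and transcript length, the replicate number as a block, leaving out each library in turn, and a pseudocount of 5 for ratios. DESeq2 without each library was added after seeing the data.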

Additional observations from a re-analysis of the deposited data

How the results depend on the processing

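Slc5a2, Slc5a12, Slc5a3, Slc5a8, Slc5a9, Slc5a10 and Slc5a11 kept their direction under all 18 alternatives run, but not their size: with a library left out in edgeR, Slc5a3 ran from 0.07 to 0.35, Slc5a8 from 0.03 to 0.22, Slc5a9 from 0.14 to 0.42, Slc5a10 from -0.46 to -0.03 and Slc5a11 from 0.09 to 0.48. Leaving out single libraries in edgeR moved Slc5a2 between 0.47 and 0.79 and Slc5a12 between 0.58 and 0.83; the lone DMXAA library left in such fits is assumed to vary like the vehicle libraries. Over all alternatives the adjusted p ran from 0.000114 to 1 for Slc5a2 and from 0.000153 to 1 for Slc5a12. Over all 16226 genes edgeR called 0 (1062 at an unadjusted p below 0.05), against 54 with DESeq2, 34 without an expression filter, and 0 to 2 with a library left out. Among the 9 members edgeR called 0 (2 at an unadjusted p below 0.05), against 2 with DESeq2, 1 (Slc5a12) without a filter and 0 with any library left out. DESeq2 called 17 and 4 genes without DMXAA library 1 and 2, of which 1 and 0 were members, and 122, 175 and 32 genes without vehicle library 1, 2 and 3, of which 2, 2 and 1 were members. The cause of these differences between tools was not tested. Slc5a1, at 0.01, turned to -0.025 with the length and GC correction and to -0.13 without vehicle library 1 in edgeR and in DESeq2; over the libraries left out in edgeR it ranged from -0.13 to 0.16. Slc5a6, at -0.06, turned to 0.10 (edgeR) and 0.11 (DESeq2) without vehicle library 1 and to 0.043 (edgeR) and 0.044 (DESeq2) without DMXAA library 2, with an edgeR range of -0.17 to 0.10.

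The labels do not state whether the replicate number pairs the samples. Deviations of same-numbered libraries correlated at 0.08 and 0.09, and 2 pairs are too few to settle this. With the replicate number as a block edgeR called 4 genes, no member among them, and gave 0.58 for Slc5a2 and 0.75 for Slc5a12. The ratio of Slc5a2 to Slc5a1 kept its direction, with a log2 difference of 0.45 to 0.74 when a library was left out, and that of Slc5a12 to Slc5a8 ranged from 0.40 to 0.72. The least abundant member had 400 counts or more in each library.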

Other observations

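The genes whose pattern over the 5 libraries lay nearest to Slc5a2, among 9854 genes at a mean of at least 10 CPM, were Trabd2b, Acat3 and Pdzk1, with root mean square differences of 0.0602, 0.0623 and 0.0728 in centred log2 CPM. Trabd2b was at 225 and 263 CPM in DMXAA and at 157, 194 and 155 CPM in vehicle libraries. Nearest to Slc5a12 were Lgals9, Rsad2 and Leng1, at differences of 0.0564, 0.0569 and 0.058. Rsad2, an interferon-stimulated antiviral gene, was at 59.5 and 67.3 CPM in DMXAA and at 38.0, 40.3 and 42.3 CPM in vehicle libraries, and Lgals9, a galectin gene, at 18.4 and 20.9 CPM in DMXAA and at 13.1, 11.8 and 13.4 CPM in vehicle libraries. These are likenesses over 5 libraries from a search through many genes and carry no test.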
